A study of Xenopus tropicalis with 10 samples.

Results

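The genes described here encode the oxidant-making machinery of phagocytes, and they were followed through tail regeneration in the frog *Xenopus tropicalis*. They are CYBB and CYBA, the membrane subunits of the phagocyte NADPH oxidase, NCF1 and NCF4, its cytosolic subunits, RAC2, its small GTPase, and MPO, myeloperoxidase. Members were the rows of the deposited gene table that carry these symbols, with or without a copy number. The rule found 6 genes, 1 row for each symbol, among the 26550 genes of the table. All 6 passed the filter on low values, which 17896 genes passed.

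RNA was sequenced from tails of stage 40 tadpoles in 10 libraries. The whole tail group (2 libraries) was the tissue taken off by a first amputation and served as the uncut control. The 0 hpa tissue (hpa, hours post amputation; 2 libraries) was a slice next to that wound, taken from the same tadpoles by a cut made straight afterwards. Regrowing tail tissue was sampled in 1 library each at 6 and 15 hpa, and in 2 libraries each at 24 and 72 hpa. The labels name no mutation, transgene or drug in any group, and there was no group of uncut tadpoles as old as those at 72 hpa. They do not say whether libraries were pools of tadpoles or whether replicates came from separate animals, so the p-values reflect only how far these libraries differed from each other, and that spread may be technical.

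Neutrophils and macrophages carry an oxidase that passes electrons from NADPH across a membrane to oxygen, which yields superoxide. In a resting cell its catalytic core sits in the membrane while its regulators stay in the cytosol. On activation the regulators and a Rac GTPase dock on the core and electron flow starts. Superoxide is converted to hydrogen peroxide, which myeloperoxidase, a heme enzyme of neutrophil granules, uses to make hypochlorous acid. In frog tadpoles, as in fish larvae, leukocytes gather at a tail wound and hydrogen peroxide is produced there.

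Gene reads per library ranged from 15966579 (72 hpa replicate 2) to 128768239 (6 hpa), and the single 6 and 15 hpa libraries were the deepest. The design text speaks of duplicates, and no source used here says whether each of these merges a pair. The 15 hpa values of the 6 genes rest on 1604 to 37732 reads, so counting error was small at that time. MPO at 15 hpa, for example, stood at 11260 normalised reads with a 95% exact Poisson interval of 11147 to 11374, which covers counting error only. In whole tissue, fewer cells of a type and less RNA per cell cannot be told apart. The values are reads divided by a size factor per library and are not scaled to transcript length, so levels were compared between libraries and not between genes.

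As a group, 5 of the 6 genes had their highest value in the 15 hpa library, and CYBA had its highest in a 72 hpa library. The median change of the 6 from their whole tail means, on the log2(value + 1) scale, was 0.84 and 1.07 in the 0 hpa libraries, 1.83 at 6 hpa and 3.14 at 15 hpa. It was then 1.44 and 1.92 at 24 hpa, and 2.35 and 1.87 at 72 hpa. The highest library exceeded the lowest 27.0-fold for NCF1, 14.7-fold for NCF4, 10.8-fold for MPO, 10.7-fold for CYBB, 6.85-fold for RAC2 and 4.92-fold for CYBA. In whole tail replicate 1, their lowest library, NCF1 and NCF4 had only 38 and 35 reads before scaling. For 5 genes every library taken after the first cut was above both whole tail libraries (8 of 8), and for CYBB 7 of 8 were. An F test over the 6 groups, made with limma on all tested genes and adjusted by Benjamini-Hochberg, called 4 of the 6 genes, against 2.27% of all genes tested. The adjusted p was 0.0157 for RAC2, 0.0226 for MPO, 0.0238 for NCF1 and 0.026 for NCF4, and 0.0649 for CYBB and 0.514 for CYBA. That count of 4 fell when either library of the whole tail, 0 hpa or 72 hpa was left out. Such fits leave a single library in a group, and in each of them fewer genes were called over the whole table too.

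**Figure D1:**
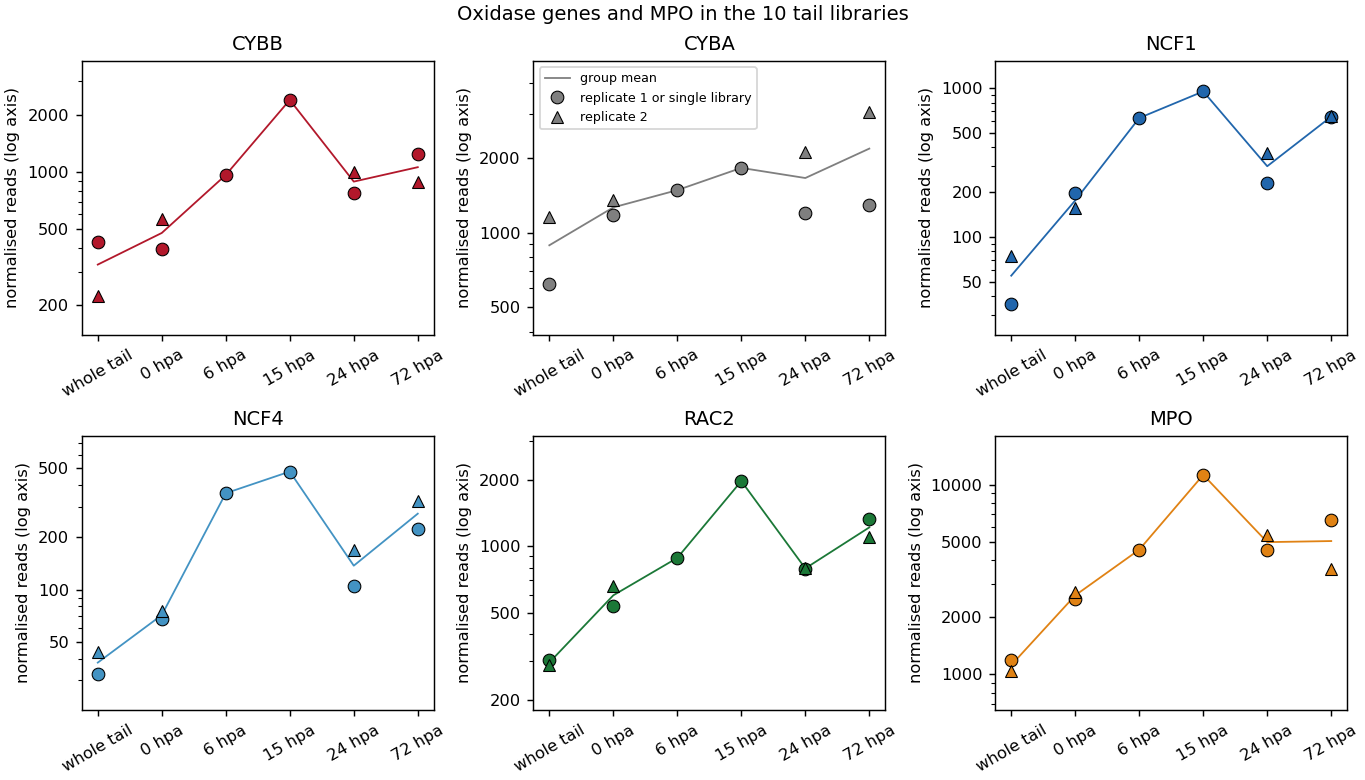
Normalised reads (log axis) of each gene in the 10 libraries by group, with circles for replicate 1 or a single library, triangles for replicate 2 and a line through the group means. CYBB, NCF1, NCF4, RAC2 and MPO peak in the 15 hpa library, at 2393, 953.2, 478.7, 1979 and 11260 normalised reads; CYBA is highest in 72 hpa replicate 2, at 3057.

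CYBB encodes the catalytic subunit, which holds the heme groups and the flavin that carry electrons across the membrane. It stood at 429.4 and 223.9 normalised reads in the whole tail libraries, 393.5 and 564.3 in the 0 hpa libraries, 965.7 at 6 hpa, 2393 in the 15 hpa library, 780.8 and 1001 in the 24 hpa libraries, and 1240 and 882.2 in the 72 hpa libraries. The 15 hpa library stood well above all others, the libraries at 6, 24 and 72 hpa overlapped, and those of the whole tail and 0 hpa overlapped too. CYBB rose at 15 hpa against the whole tail by 2.94 on the log2 scale (SE 0.444, limma adjusted p = 0.0384) and at 72 hpa by 1.75 (SE 0.363, limma adjusted p = 0.0285). At 24 hpa the difference from the whole tail was 1.51 (SE 0.363, limma adjusted p = 0.101) and did not pass.

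CYBA encodes the partner that CYBB needs for stability and that also pairs with NOX1 and NOX4, oxidases of other cell types. Its values were 621.4 and 1156 normalised reads in the whole tail libraries, 1171 and 1354 in the 0 hpa libraries, 1481 at 6 hpa, 1819 in the 15 hpa library, 1197 and 2117 in the 24 hpa libraries, and 1294 and 3057 in the 72 hpa libraries. Only the whole tail libraries lay apart, all 8 others being above them, while the 24 and 72 hpa replicates were far apart from each other. CYBA passed no limma test on the 10 libraries. DESeq2, which called 3108 of all genes at 72 hpa against the whole tail (limma 1663), called CYBA there (DESeq2 adjusted p = 0.0462). The log2 difference of CYBA from the whole tail was 1.10 at 15 hpa (SE 0.583, limma adjusted p = 0.49) and 1.23 at 72 hpa (SE 0.476, limma adjusted p = 0.145).

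NCF1 encodes the organiser subunit, which is phosphorylated on activation and brings the cytosolic complex to the membrane. It had 35.2 and 74.6 normalised reads in the whole tail libraries, 196.7 and 155.7 in the 0 hpa libraries, 631.7 at 6 hpa, 953.2 in the 15 hpa library, 231.1 and 367.4 in the 24 hpa libraries, and 644.3 and 646.5 in the 72 hpa libraries. No neighbouring groups in this order of level overlapped, and both 72 hpa libraries were above both 24 hpa libraries. The whole tail values rest on 38 and 55 reads before scaling, and replicate 2 was 1.06 higher than replicate 1 on the log2 scale. Against the whole tail its log2 fold changes at 15, 24 and 72 hpa were the largest of the 6 genes: 4.19 at 15 hpa (SE 0.498, limma adjusted p = 0.0171), 2.48 at 24 hpa (SE 0.407, adjusted p = 0.0412) and 3.63 at 72 hpa (SE 0.407, adjusted p = 0.00529). The 6 hpa library differed from the whole tail by 3.60 (SE 0.498), which did not pass (limma adjusted p = 0.0621).

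NCF4 encodes the subunit that binds a phosphoinositide lipid of the phagosome membrane. Its values were 32.5 and 43.4 normalised reads in the whole tail libraries, 67.5 and 75.1 in the 0 hpa libraries, 359.3 at 6 hpa, 478.7 in the 15 hpa library, 105.3 and 169.3 in the 24 hpa libraries, and 224.4 and 323.2 in the 72 hpa libraries. As for NCF1, the groups did not overlap, with 6 and 15 hpa being single libraries without a range. The 6 hpa library was above both 72 hpa libraries. NCF4 rose by 3.64 at 15 hpa (SE 0.464, limma adjusted p = 0.0212) and by 2.81 at 72 hpa (SE 0.379, adjusted p = 0.00781) against the whole tail. At 24 hpa its difference was 1.80 (SE 0.379, adjusted p = 0.0764).

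RAC2 encodes the Rac GTPase of blood cells, which activates the oxidase in mammalian neutrophils. It stood at 303.3 and 289.0 normalised reads in the whole tail libraries, 535.9 and 661.4 in the 0 hpa libraries, 885.6 at 6 hpa, 1979 in the 15 hpa library, 791.8 and 794.9 in the 24 hpa libraries, and 1332 and 1106 in the 72 hpa libraries. No neighbouring groups overlapped, though 6 and 15 hpa are single libraries without a range. Replicates lay closer together than for the other members in the whole tail and at 24 hpa. RAC2 rose against the whole tail by 2.74 at 15 hpa (SE 0.253, limma adjusted p = 0.0124), 1.42 at 24 hpa (SE 0.206, adjusted p = 0.0315) and 2.03 at 72 hpa (SE 0.206, adjusted p = 0.00431). Its widely expressed paralog RAC1 ranged from 9439 to 17853 normalised reads and passed none of these tests, with log2 differences from the whole tail of 0.21 at 15 hpa and 0.45 at 72 hpa (limma adjusted p = 0.846 and 0.297). The deposited table does not say how reads shared between these related genes were counted.

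MPO had 1197 and 1041 normalised reads in the whole tail libraries, 2503 and 2713 in the 0 hpa libraries, 4541 at 6 hpa, 11260 in the 15 hpa library, 4515 and 5439 in the 24 hpa libraries, and 6502 and 3585 in the 72 hpa libraries. The 0 hpa libraries were both above the whole tail libraries, the 15 hpa library was above all others, and 6, 24 and 72 hpa overlapped. MPO rose against the whole tail by 3.33 at 15 hpa (SE 0.342, limma adjusted p = 0.0138), by 2.15 at 24 hpa (SE 0.279, adjusted p = 0.0246) and by 2.11 at 72 hpa (SE 0.279, adjusted p = 0.00772). Its replicates at 72 hpa differed by 0.86 on the log2 scale, with replicate 1 higher.

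**Figure D2:**
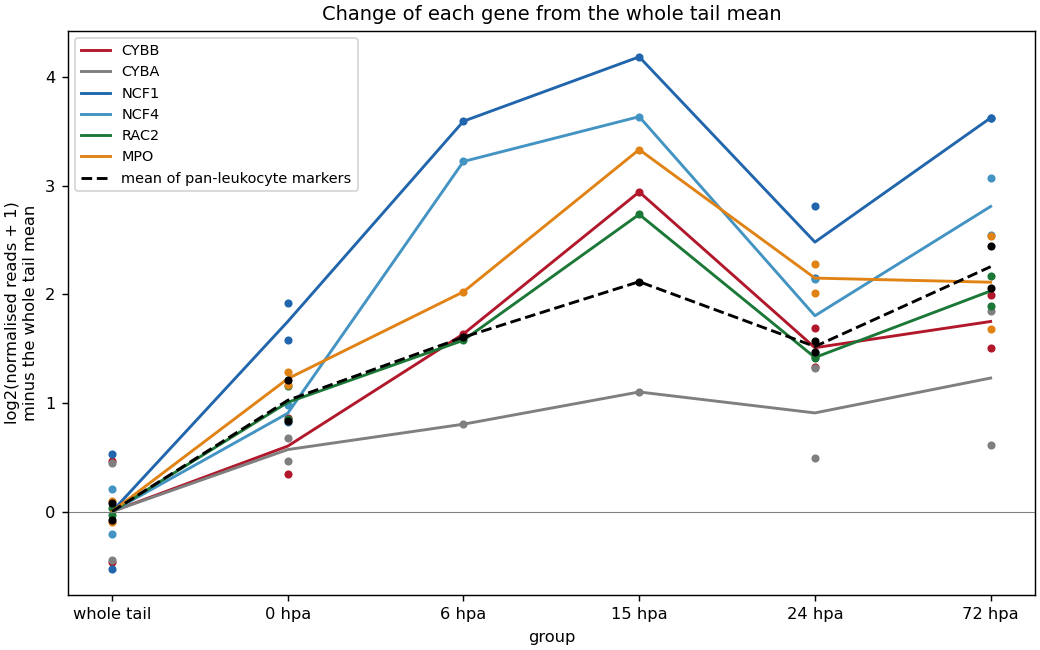
Each gene's log2(normalised reads + 1) minus its mean in the 2 whole tail libraries, by group, with points for libraries and lines for group means; the dashed line is the mean of 11 leukocyte marker genes. At 15 hpa 5 of the 6 genes lie between 2.74 and 4.19, and CYBA at 1.10; the mean of the markers lies at 2.12 and their median at 2.45, with single markers up to 3.44.

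Against the whole tail, then, CYBB, NCF1, NCF4, RAC2 and MPO rose at 15 hpa (5 of 6 genes called, all higher, against 0.676% of all genes tested), and the same 5 at 72 hpa (9.29% of all genes). At 24 hpa 3 of 6 were called, namely NCF1, RAC2 and MPO (1.11% of all genes). The median log2 difference of the 6 was 3.14 at 15 hpa, 1.66 at 24 hpa and 2.07 at 72 hpa, while that of all tested genes was -0.02, -0.0038 and -0.0032. The 15 hpa call rests on 1 library, whose spread is assumed to be that of the duplicated groups. Of the 5 genes called at 15 hpa, fewer were called when any replicate was left out, and fewest without a whole tail library. At 24 hpa the calls were lost when any whole tail, 0 hpa or 24 hpa library was left out. At 72 hpa fewer members were called without any whole tail or 72 hpa library. In each of these fits fewer genes were called over the whole table too.

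At 0 hpa and at 6 hpa the 6 genes were all higher in value than in the whole tail, and none passed. At 0 hpa limma called 0 of 6 (0% of all genes), although 4 of 6 reached an unadjusted p under 0.05. With edgeR the count was 0 and with DESeq2 it was 3, namely MPO, NCF1 and RAC2. Over all genes 1422 reached an unadjusted p under 0.05 in limma, while edgeR called 0 and DESeq2 called 326. At 0 hpa the log2 differences ran from 0.57 (CYBA) to 1.75 (NCF1), and MPO differed by 1.22 (SE 0.279, limma adjusted p = 0.306). At 6 hpa limma called 0 of 6 (0% of all genes), with 5 of 6 at an unadjusted p under 0.05, while edgeR with its own scaling called 3 and DESeq2 called 5. Over all genes these counts were 1841, 63 and 564. The differences at 6 hpa ran from 0.80 (CYBA) to 3.60 (NCF1), with NCF4 at 3.22 (SE 0.464, limma adjusted p = 0.0627).

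Against 0 hpa, which shares its position at the cut with the regenerating tissue, fewer genes passed. At 15 hpa RAC2 rose by 1.73 (SE 0.253, limma adjusted p = 0.0492), the only call among the 6 (0.363% of all genes). The other differences ran from 0.53 (CYBA) to 2.73 (NCF4), with adjusted p between 0.0686 and 0.758. The RAC2 call was lost when any replicate was left out, without the 6 hpa library, with a pseudocount of 5 and after thinning to the shallowest library. In each of these fits fewer genes were called over the whole table too. DESeq2 called 5 of the 6 genes there, against 827 of all genes, where limma called 65. At 72 hpa NCF1 (1.88, SE 0.407), NCF4 (1.91, SE 0.379) and RAC2 (1.03, SE 0.206) rose against 0 hpa, with limma adjusted p = 0.0395, 0.0323 and 0.0333, against 6.4% of all genes called. These 3 calls were lost without either 0 hpa library or either 72 hpa library, and the RAC2 call was lost without either 24 hpa library. Fewer genes were called over the whole table in those fits too. At 24 hpa limma called 0 of 6 (0.967% of all genes), and 3 reached an unadjusted p under 0.05 without passing (3000 over all genes). There edgeR and DESeq2 called 0 of the 6, against 125 and 1115 of all genes. At 6 hpa limma called 0 of 6 against 0 hpa (0% of all genes, 1044 at an unadjusted p under 0.05), 3 of the 6 reached an unadjusted p under 0.05, and with other tools edgeR called 0 and DESeq2 called NCF1 and NCF4 (0 and 142 of all genes). The comparisons with the whole tail and with 0 hpa use the same later libraries, so their values are given side by side and not as separate evidence.

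**Figure D3:**
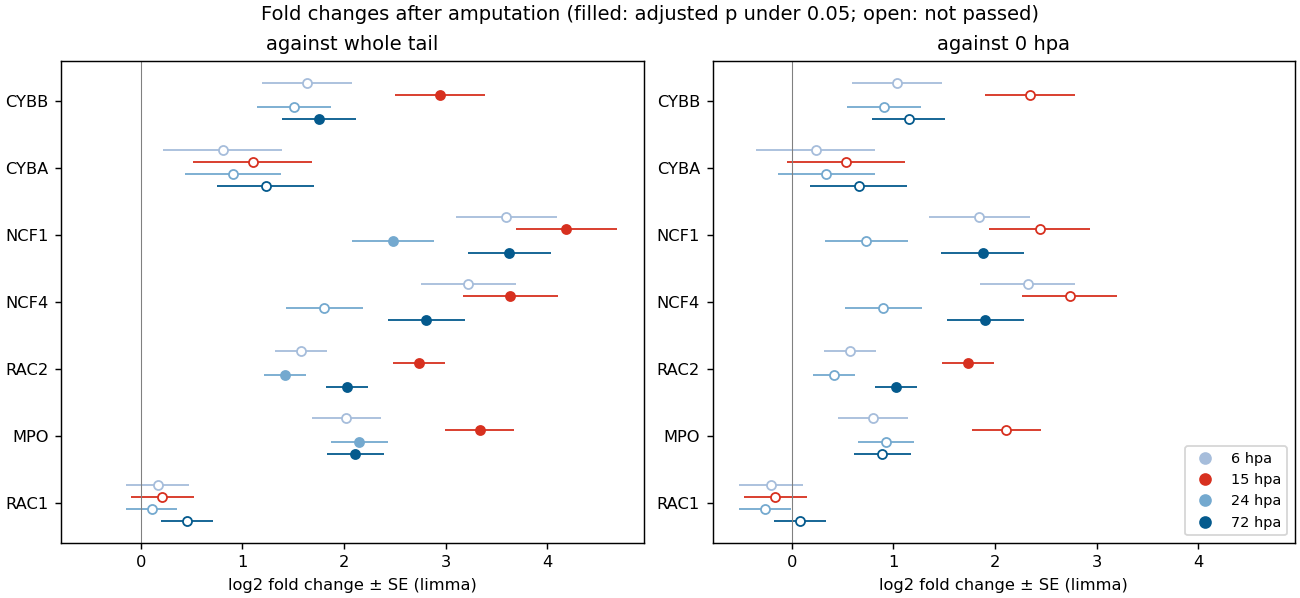
Log2 fold changes with standard errors (limma, 10 libraries) of the 6 genes and of RAC1 at 6, 15, 24 and 72 hpa, against the whole tail (left) and 0 hpa (right); filled points had adjusted p under 0.05. Against the whole tail 5 of the 6 genes have filled points at 15 and 72 hpa; RAC1 has none.

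Between consecutive regeneration times no member passed. At 24 hpa all 6 genes were lower in fitted value than at 15 hpa, by -0.19 (CYBA) to -1.83 (NCF4), with a median of -1.38 against -0.02 over all tested genes. RAC2 had the smallest p there (log2 difference -1.32, SE 0.253, limma adjusted p = 0.355). Limma called 0 of 6 (0.0335% of all genes), and 5 of 6 reached an unadjusted p under 0.05 (826 over all genes). Of the other tools edgeR called 0 of the 6 and 1 of all genes. DESeq2 called NCF4 and RAC2, and over the whole table it called many more genes than limma or edgeR. At 15 hpa against 6 hpa limma called 0 of 6 (0.0224% of all genes), and 3 had an unadjusted p under 0.05 (963 over all genes). At 72 hpa against 24 hpa it called 0 of 6 (0.0726% of all genes), and 3 had one (1913 over all genes). In both, edgeR and DESeq2 called 0 of the 6, while over all genes edgeR called 2 in each and DESeq2 called 117 and 547. NCF1 and NCF4 were higher in both 72 hpa libraries than in both 24 hpa libraries, with log2 differences of 1.14 (SE 0.407) and 1.01 (SE 0.379) and limma adjusted p = 0.365 and 0.4. With 2 libraries against 2, an exact two-sided permutation test cannot give a p below 0.333, so none is given for single genes.

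NCF1 and NCF4 were nearer to their 15 hpa level at 6 hpa than the catalytic subunit, RAC2 and MPO were. At 6 hpa NCF4 stood at 75.1% of its 15 hpa value and NCF1 at 66.3%. CYBB stood at 40.4%, MPO at 40.3% and RAC2 at 44.7%. CYBA, which changed least over the series, stood at 81.4%. At 24 hpa the means of NCF4 and NCF1 were 28.7% and 31.4% of the 15 hpa value, below those of CYBB (37.2%), RAC2 (40.1%) and MPO (44.2%). At 72 hpa NCF1 averaged 67.7%, RAC2 61.6% and NCF4 57.2%, while MPO averaged 44.8% and CYBB 44.3%. These shares describe 1 library at 6 hpa and 1 at 15 hpa, and the difference between genes was not tested.

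Marker genes of leukocytes moved in the same libraries. Of 14 pan-leukocyte symbols 11 were in the table and tested, and their mean log2 change from the whole tail was 0.83 and 1.21 in the 0 hpa libraries, 1.61 at 6 hpa, 2.12 in the 15 hpa library, 1.47 and 1.57 in the 24 hpa libraries, and 2.45 and 2.06 in the 72 hpa libraries. Their summed level was 3544 to 4757 normalised reads in the whole tail libraries, 12144 at 15 hpa and 11299 to 13265 at 72 hpa. Against the whole tail 4 of the 11 rose at 15 hpa and 8 at 72 hpa; LCP1, an actin-bundling protein of leukocytes, rose by 2.45 and PTPRC, the leukocyte phosphatase CD45, by 2.76 at 15 hpa (limma adjusted p = 0.0101 and 0.0212). CYBB, NCF1, NCF4, RAC2 and MPO were lower in both 72 hpa libraries than at 15 hpa, and so were 4 of the 11 markers, LCP1, CD53, SPI1 and ITGB2. The markers' mean at 72 hpa lay to either side of its 15 hpa value. The part that leukocyte number plays in the members' values was not tested.

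Set against the mean of those 11 markers in the same library, the members split. Single markers ranged widely at 15 hpa, from 0.16 to 3.44 above the whole tail, and 3 of the 11 (CD53, SPI1 and ITGB2) had a larger log2 fold change than CYBB and 5 a larger one than RAC2. Relative to the whole tail mean, the median of the 6 minus the marker mean was 0.01 and -0.14 in the 0 hpa libraries, 0.22 at 6 hpa, 1.02 in the 15 hpa library, -0.03 and 0.35 in the 24 hpa libraries, and -0.10 and -0.19 in the 72 hpa libraries. It was 1.09 higher at 15 hpa than the 0 hpa mean. NCF1 stood above its whole tail mean on this scale in every library after the first cut. The difference was 1.99 at 6 hpa, 2.07 at 15 hpa and 0.37 to 1.57 in the other libraries after that cut. Its 2 whole tail libraries lay at -0.45 and 0.45, and 0 hpa replicate 2 (0.37) was within that range. NCF4 stood 1.62 and 1.52 above the markers at 6 and 15 hpa. Elsewhere its difference ran from -0.23 (0 hpa replicate 2) to 1.01 (72 hpa replicate 2). RAC2 lay between -0.28 and 0.12 outside the 15 hpa library, where it was 0.62 above the markers. For MPO the difference was 0.42 at 6 hpa, 1.22 in the 15 hpa library, 0.54 and 0.72 in the 24 hpa libraries, and 0.09 and -0.38 in the 72 hpa libraries. For CYBB it was 0.83 at 15 hpa, and -0.45 and -0.55 in the 72 hpa libraries, while its whole tail libraries lay at 0.55 and -0.55. CYBA was below its whole tail mean on this scale in all 8 libraries after the first cut, at -0.21 to -1.84. Its whole tail replicate 1 lay at -0.36, lower than 24 hpa replicate 2 (-0.25) and 72 hpa replicate 2 (-0.21). These are descriptions of single libraries at 6 and 15 hpa, and no test was made.

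**Figure D4:**
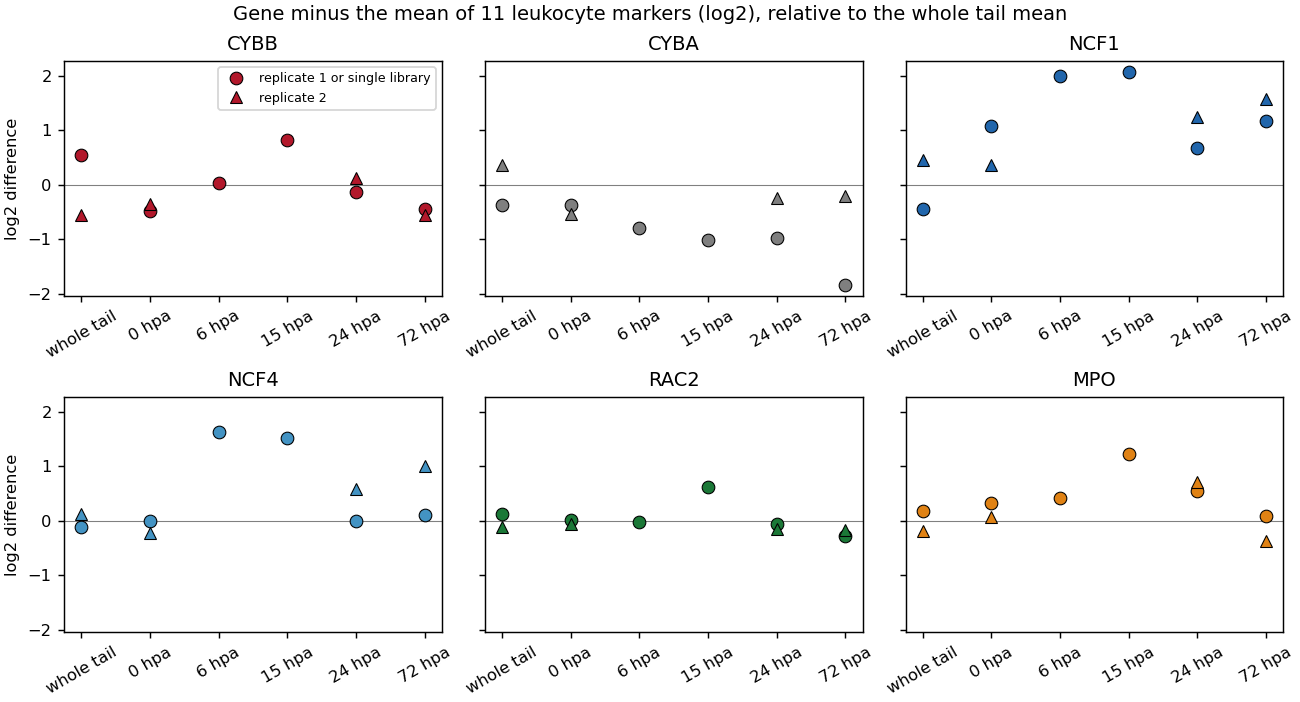
Log2 difference of each gene from the mean of 11 pan-leukocyte markers in the same library, relative to the whole tail mean, with circles for replicate 1 or a single library and triangles for replicate 2. NCF1 stands above 0 in every library after the cut, with 1.99 at 6 hpa and 2.07 at 15 hpa. NCF4 stands at 1.62 and 1.52 at those times, MPO is highest at 15 hpa (1.22), and CYBA lies below 0 after the cut. The 2 whole tail libraries lie at -0.45 and 0.45 for NCF1 and at -0.36 and 0.36 for CYBA.

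Markers of particular blood cells gave an uneven picture. Of 23 neutrophil and granule symbols only 6 were in the table as such and 4 were tested. The granule protease CTSG was at 0 to 8.35 normalised reads and LYZ, lysozyme, at 0 to 3.09, so neither of these 2 genes passed the filter on low values under these symbols. MMP9, a matrix protease stored in neutrophil granules in mammals, rose against the whole tail by 4.26 at 15 hpa (limma adjusted p = 0.00993) and by 3.91 at 72 hpa (limma adjusted p = 0.00218). It was the only marker of that list called at 15 hpa, and GFI1, a transcription factor of granulocyte precursors, was called beside it at 72 hpa. Of 9 tested macrophage markers CSF1R, the receptor of a macrophage growth factor, was called at 15 hpa (1.80, limma adjusted p = 0.0153) and 4 were at 72 hpa. Of 9 tested lymphoid markers limma called 0 at 15 hpa (2 at an unadjusted p under 0.05; edgeR 0, DESeq2 1), and at 72 hpa it called CD3E and IL7R, both higher. The 8 globin genes took 0.542% and 0.441% of reads in the whole tail libraries, 0.988% and 3.36% in the 0 hpa libraries, 0.713% at 6 hpa, 0.352% in the 15 hpa library, 0.439% and 0.301% in the 24 hpa libraries, and 0.104% and 0.253% in the 72 hpa libraries. The globin share was thus highest in the 0 hpa libraries, which differed from each other, and lower in the 15 hpa library. The part of blood in the members' values, at 0 hpa or later, was not tested. Markers of tail tissue were abundant: skeletal muscle genes summed to at least 110170 and epidermal genes to at least 762727 normalised reads in every library.

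Among 18 tested genes of oxidase assembly and upstream signalling, 3 rose and 0 fell at 15 hpa against the whole tail (0.676% of all genes called), among them SYK, a tyrosine kinase below Fc receptors and integrins (2.67, SE 0.309, limma adjusted p = 0.0161), and ARHGDIB, the inhibitor that holds Rac proteins in the cytosol of blood cells (2.19, SE 0.215, limma adjusted p = 0.0138). At 72 hpa 8 of the 18 rose and 0 fell (9.29% of all genes called), among them BTK, DOCK2, PIK3CG, PIK3R5 and HVCN1. HVCN1 encodes the proton channel that offsets the charge moved by the oxidase. It had 749.4 and 894.1 normalised reads in the whole tail libraries, 936.8 and 1000.3 in the 0 hpa libraries, 814.3 at 6 hpa, 1524 in the 15 hpa library, 1158 and 1371 in the 24 hpa libraries, and 2551 and 4173 in the 72 hpa libraries. Unlike 5 of the 6 members, HVCN1 was highest at 72 hpa, where it rose by 1.99 against the whole tail (SE 0.26, limma adjusted p = 0.00752). The median of the list was 0.26 at 15 hpa and 0.56 at 72 hpa, against -0.02 and -0.0032 over all tested genes.

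Other NADPH oxidases and their maturation factors gave different counts of calls by tool at 72 hpa. Of 8 tested genes 0 were called at 15 hpa and 1 at 72 hpa against the whole tail by limma. At 15 hpa 1 reached an unadjusted p under 0.05 and neither edgeR nor DESeq2 called any. At 72 hpa DESeq2 called 4 (3108 of all genes), which were DUOXA1, DUOX2, NOX1 and NOXA1. The median log2 differences were 0.30 at 15 hpa and 0.78 at 72 hpa. The gene called by limma was DUOXA1, a maturation factor of the dual oxidases of epithelia, which rose by 1.20 at 72 hpa (SE 0.295, limma adjusted p = 0.0461). NOX1, an oxidase of epithelia in mammals, was highest in 72 hpa replicate 2 and passed no limma test but was called by DESeq2 at 72 hpa against the whole tail (DESeq2 adjusted p = 0.0167), with 3512 normalised reads in replicate 2 and 95.2 in replicate 1 at 72 hpa. PXDN, a heme peroxidase of the extracellular matrix, was not called, with a log2 difference from the whole tail of -0.37 at 15 hpa (limma adjusted p = 0.697).

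Of 19 tested genes that remove oxidants, 1 was called at 15 hpa against the whole tail, the row named CAT, which encodes catalase, the enzyme that breaks down hydrogen peroxide. CAT stood at 209.6 and 279.5 normalised reads in the whole tail libraries, 312.9 and 458.0 in the 0 hpa libraries, 1361 at 6 hpa, 2279 in the 15 hpa library, 666.0 and 1009 in the 24 hpa libraries, and 1353 and 1451 in the 72 hpa libraries. It thus peaked in the same library as 5 of the members and rose by 3.23 at 15 hpa (SE 0.362, limma adjusted p = 0.016) and by 2.53 at 72 hpa (SE 0.296, limma adjusted p = 0.00579). The table holds further catalase rows: CAT.1 fell by 3.42 at 72 hpa (SE 0.59, limma adjusted p = 0.0166), and CAT.2 differed by -0.30 at 15 hpa and 0.43 at 72 hpa (limma adjusted p = 0.734 and 0.279). No source used here says how reads were split between these rows, so each is uncertain. PRDX5, a peroxiredoxin, was the other gene higher at 72 hpa, and the list's median was 0.01 at 15 hpa and 0.39 at 72 hpa. Of 11 tested genes that supply NADPH, limma called 0 at 15 hpa (2 at an unadjusted p under 0.05; edgeR 0, DESeq2 0). At 72 hpa TKT, a pentose phosphate enzyme, rose by 1.97 and IDH1, an isocitrate dehydrogenase, fell by 1.32 (limma adjusted p = 0.0422 and 0.0421); edgeR called 0 of the 11 there and DESeq2 2.

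CYBA and NCF4 were higher in replicate 2 than in replicate 1 in each of the 4 duplicated groups. NCF4 rests there on few reads, with 32 in replicate 2 and 35 in replicate 1 of the whole tail before scaling, and 41 and 36 at 0 hpa, so its differences in the whole tail and at 0 hpa are within counting error. For CYBA, replicate 2 minus replicate 1 was 0.89 in the whole tail, 0.21 at 0 hpa, 0.82 at 24 hpa and 1.24 at 72 hpa on the log2 scale. NOX1 and NOXA1, its activator, were higher in replicate 2 in all 4 groups too, by up to 5.19 and 1.52 at 72 hpa. Other oxidase genes were not: NOX4 was higher in replicate 2 in 2 of 4 groups, with -1.62 at 0 hpa. DUOX1, DUOX2 and DUOXA1 were higher there in 3 of 4. Over all tested genes 5.53% were higher in replicate 2 in all 4 groups. MPO, by contrast, was higher in replicate 2 in 2 of 4 groups. CYBA and NOX1 both had their highest values in 72 hpa replicate 2, at 3057 and 3512 normalised reads, against 1294 and 95.2 in replicate 1. That library stood apart for other genes too, with 987 against 47.6 normalised reads of DUOX2 and 26471 against 6004 of PRDX5. Skeletal muscle markers also differed between the replicates at 72 hpa, with sums of 659664 in replicate 2 and 129542 in replicate 1. In the whole tail they summed to 622593 in replicate 1 and 110170 in replicate 2. The part of such differences between libraries in the values of CYBA was not tested.

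**Figure D5:**
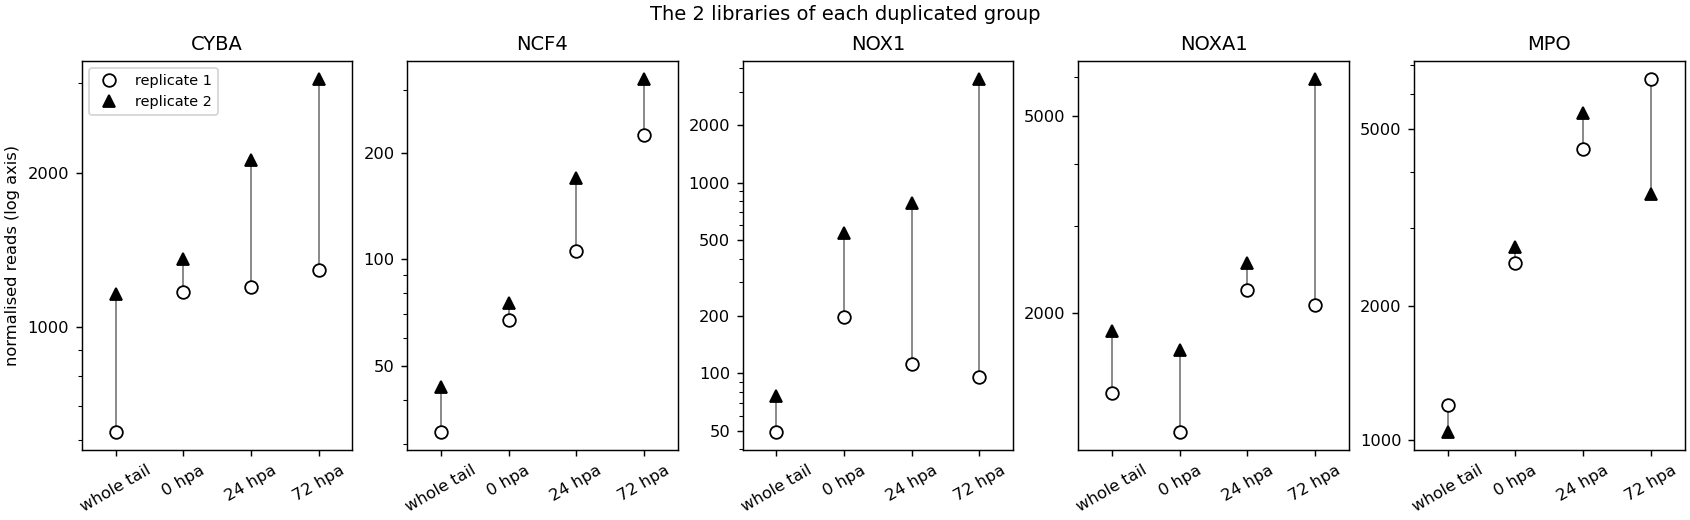
Normalised reads (log axis) of CYBA, NCF4, NOX1, NOXA1 and MPO in replicate 1 (open circles) and replicate 2 (filled triangles) of the 4 duplicated groups. Replicate 2 is higher in all 4 groups for CYBA, NCF4, NOX1 and NOXA1 and in 2 of 4 for MPO.

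Across the 10 libraries the members' log2 profiles correlated with Pearson's r from 0.843 to 0.969 among the 10 pairs without CYBA and from 0.521 to 0.770 in the 5 pairs with it. NCF1 and NCF4 were the most alike. The libraries share groups, depth and marker content, so these coefficients are descriptions. In the authors' deposited table all 6 genes carry the flag of changed genes and belong to the cluster named C6, which holds 487 genes, or 1.83% of the table, while 19.2% of its genes are flagged. Of the 18 assembly and signalling genes 4 are in C6 in the authors' deposited table, and of the 11 pan-leukocyte markers 5 are. That clustering used these same libraries and is no separate evidence.

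Among 10626 named genes with at least 100 normalised reads in a library, those most like the mean standardised profile of the 6 members over the 10 libraries were LCP1 (r = 0.987), FXYD5 (0.985), RASGRP4 (0.982), CAT (0.981), GPR126 (0.981), PRTN3-LIKE.2 (0.980), PLCB2 (0.980) and MMP9 (0.971). PRTN3-LIKE.2, which the table names after the granule protease proteinase 3, had 2267 normalised reads in the 15 hpa library, against 201.3 and 210.3 in the whole tail. It was also among the 3 genes most like MPO alone (THEMIS2, 0.963, PLEKHO2, 0.952, and PRTN3-LIKE.2, 0.951) and among the 3 most like CYBB alone (SPI1, PNOC and PRTN3-LIKE.2, all 0.947). SPI1 encodes a transcription factor of myeloid cells and is in the pan-leukocyte list. In the RefSeq annotation of assembly UCB_Xtro_10.0, RAC2 and NCF4 lie on 1 chromosome with 8 protein-coding genes between them, and MPO, NCF1 and CYBB share another chromosome.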

How the data were processed

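Tail RNA of 10 libraries was measured by RNA-seq. The authors deposited a normalised signal per gene; the submitters' processing notes name R 3.2.0, DESeq2, HTSeq, SAMtools 1.1, TopHat2 2.0.13 and Trim Galore 0.3.3. No source used here names the build or annotation. Values were whole multiples of what 1 read is worth in each library (100% at a tolerance of 0.01), so the deposited signal is reads over a size factor.

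The main test was limma (3.58.1, R 4.3.3) on log2(value + 1) with a variance trend, in 1 fit of all 10 libraries and 6 groups (4 residual degrees of freedom), on 17896 genes that reached 10 normalised reads in 2 or more libraries. A gene with Benjamini-Hochberg adjusted p under 0.05 over all tested genes was called. Fold changes understate the change of low genes. edgeR (4.0.16) and DESeq2 (1.42.0) on recovered reads, other scalings, filters (50 reads, or none), pseudocounts, thinning, a replicate block and leaving out libraries were alternatives. The code was tested on simulated data.

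The members and the 13 gene lists (207 symbols) were chosen with earlier results of these data known, so a list's count is no independent evidence. Named list genes were those with the smallest F test p or called in a comparison described, and genes of like profile were ranked by Pearson's r. No sequences were used here. Replicate numbers were not taken to pair samples. Some genes of the lists are not reported here.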

Additional observations from a re-analysis of the deposited data

How the results depend on the processing

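Over 22 alternatives, 1470 refitted log2 fold changes of the 6 genes gave 1360 with the same direction and call, 72 that lost a call, 28 that gained one and 10 that changed sign. Only differences called in the main fit could lose a call. Against the whole tail these were 5 members at 15 hpa, 3 at 24 hpa and 5 at 72 hpa. Against 0 hpa they were 1 at 15 hpa and 3 at 72 hpa. Most of the losses came when a replicate was left out. Without a low-value filter the F test called 1 member (293 of all genes) and 72 hpa against 0 hpa 0 (232 of all genes). Against the whole tail it was 0 at 24 hpa (57 of all genes) and 1 at 6 hpa (144 of all genes). For 15 against 0 hpa a pseudocount of 5, thinning and leaving out the 6 hpa library each gave 0. DESeq2 called more genes: 5 in the F test, with CYBB added, 6 at 72 hpa against the whole tail, with CYBA added, 3 at 0 hpa and 5 at 6 hpa against the whole tail, 2 at 6 hpa, 5 at 15 hpa and 5 at 72 hpa against 0 hpa, 5 at 24 hpa against the whole tail, and 2 at 24 against 15 hpa. Over the whole table, too, DESeq2 called more genes than limma in each of these comparisons. Its F test called 3513 of all genes (limma 407). The comparison of 72 with 0 hpa gave 2354 (limma 1145), and that of 24 hpa with the whole tail gave 1310 (limma 198). For 6 hpa against the whole tail edgeR called 3 with TMM and 2 with DESeq2 size factors (63 and 46 of all genes). Leaving out each replicate gave 0 to 4 genes in the F test, 0 at 15 against 0 hpa, 0 to 4 at 15 hpa, 0 to 2 at 24 hpa and 3 to 5 at 72 hpa against the whole tail, and 0 to 3 at 72 against 0 hpa; these fits hold fewer libraries, and the cause was not tested further. Changes of sign were among differences that passed no test. Leaving out a replicate gave CYBA -0.0735 to 0.75 at 24 against 0 hpa, -0.60 to 0.22 at 24 against 15 hpa and -0.30 to 0.94 at 72 against 24 hpa. It gave CYBB -0.00338 to 0.49 and MPO -0.47 to 0.39 at 72 against 24 hpa, where MPO was 0.016 and 0.020 in edgeR and 0.020 in DESeq2. Scaling to total reads moved the median of all genes by up to 0.18 (15 against 0 hpa); 5 members still peaked at 15 hpa. With a replicate block in the 8 duplicated libraries, 6 members rather than 5 were called at 72 hpa against the whole tail, CYBA being the addition. Over all genes 1944 were called with the block, 1682 in those libraries without it and 1663 in the main fit. Replicate differences of different groups correlated at r from -0.13 to 0.27, so the numbers were not shown to pair samples. The fit of those 8 libraries without the block was chosen after seeing the data. The single 6 and 15 hpa libraries limit every statement on those times.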
